A study of Mus musculus with 4 samples.

Results

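The shared promoters were the regions around protein-coding gene starts in which an accessible site was found in every library of sorted mouse inhibitory neuron nuclei. Merging the peaks of the 4 libraries wherever they overlapped, by 1 bp or more, gave 185260 regions, of which 46698 held a peak of every library. Of these, 10963 overlapped a window of 1 kb either side of the start of a protein-coding gene (GENCODE release M21 on GRCm38) and were the shared promoters. They served 12314 of the 21938 protein-coding gene starts, or 56.1%. The comparison set was the 33678 shared distal regions, which held a peak of every library and no protein-coding gene or transcript start within 1 kb. The remaining 2057 common regions lay near a transcript start only.

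A promoter is the stretch of DNA around a gene's start at which the transcription machinery assembles. In an active promoter, nucleosomes are displaced and the DNA can be reached by enzymes, and the transposase of ATAC-seq cuts such open DNA and leaves a sequencing adapter at each cut site. Many mammalian promoters lie in CpG islands, stretches in which the CpG dinucleotide has escaped the loss that methylation causes elsewhere, and such promoters tend to be open in most cell types. Promoters of tissue-specific genes more often lack an island, and much of the difference between cell types is carried by distal enhancers.

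Single-nucleus ATAC-seq was carried out on nuclei of Dlx6aCre;Sun1/sfGFP mice at postnatal day 30, with 2 libraries from cortex and 2 from hippocampus. All 4 libraries shared this genotype. Its Dlx6a Cre driver is active in forebrain inhibitory neurons and their precursors, and GFP labels the nuclear envelope of cells that have expressed Cre. GFP+ nuclei were sorted, so both groups hold inhibitory neurons and any other nuclei within the gate, and no group was an untreated control of the other. The labels do not say whether replicates came from separate animals, so p-values measure only the spread between libraries.

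The libraries differed in depth and in how much of the genome their peaks covered. They held 2355 to 5576 nuclei and 32005984 to 117290059 cut sites in peaks, with a median of 7352 (cortex replicate 2) to 47236 (cortex replicate 1) cut sites per nucleus. Cut sites outside the peaks of a library were not counted for it, so a wider peak can hold more counts. The median shared promoter was covered over 1627 and 910 bp in cortex (replicates 1 and 2, the order of all lists of 4 values here) and over 1430 and 1316 bp in hippocampus. For this reason values are also given for the 6891 shared promoters (62.9%) and 11741 shared distal regions (34.9%) of which at least 50% was covered in each library, called well-covered below. Between 11 and 47 barcodes were shared by a pair of libraries. Nuclei with more cut sites in oligodendrocyte lineage genes than in pan-GABA genes made up 2.93% and 9.07% of the nuclei in cortex and 9.31% and 9.83% in hippocampus. In sums over nuclei, fewer nuclei with an open promoter and fewer cut sites per open promoter cannot be told apart.

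The sequence around the starts set the shared promoters apart from other gene starts, and 4 stretches, all from shared promoters, are shown as examples. Each is the 150 bases upstream of the gene start, read 5′ to 3′ on the gene's strand from the RefSeq copy of GRCm38, and capitals mark the motifs searched, listed in the next paragraph, on either strand. Psma1 (a proteasome subunit) is an example of a CpG-rich start of a gene used by every cell and was picked for its motifs after its values were seen. Gad2 encodes a GABA-synthesising enzyme. Pgf (a growth factor of the VEGF family) and Pipox (a peroxisomal oxidase) had some of the smallest p-values between tissues.
Psma1, chr7:114276119-114276268, minus strand: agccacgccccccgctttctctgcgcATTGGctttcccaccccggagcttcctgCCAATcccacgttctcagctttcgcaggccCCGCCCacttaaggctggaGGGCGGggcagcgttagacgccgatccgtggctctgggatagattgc
Gad2, chr2:22622055-22622204, plus strand: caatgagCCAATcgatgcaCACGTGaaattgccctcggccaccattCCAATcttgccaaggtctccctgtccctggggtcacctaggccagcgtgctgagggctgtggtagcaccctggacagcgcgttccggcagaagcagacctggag
Pgf, chr12:85177791-85177940, minus strand: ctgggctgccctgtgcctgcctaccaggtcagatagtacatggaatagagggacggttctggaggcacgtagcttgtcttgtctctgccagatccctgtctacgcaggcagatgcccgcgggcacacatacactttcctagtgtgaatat
Pipox, chr11:77894097-77894246, minus strand: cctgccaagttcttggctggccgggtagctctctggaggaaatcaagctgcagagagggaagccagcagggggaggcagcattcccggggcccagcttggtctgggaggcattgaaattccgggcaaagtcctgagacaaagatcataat

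In the window from 250 bases before to 50 after the start, the median ratio of observed to expected CpG was 0.752 at the 12314 starts in a shared promoter and 0.203 at the other 9624 starts. The ratio was above 0.6, a usual limit for a CpG island, at 70.5% and 10.9% of them. In the stretches shown it was 0.784 for Psma1, against 0.509 for Gad2, 0.436 for Pgf and 0.252 for Pipox. GGGCGG, the core of the SP/KLF motif, was found on either strand in 62.3% of starts in a shared promoter, 18.3% of other starts and 43.0% of all starts. CCGGAAG, bound by ETS factors, was found in 16.9%, 2.93% and 10.8%. GCATGCGC (NRF1) was found in 5.38%, 1.57% and 3.71%, TGACGTCA (CREB) in 3.59%, 0.956% and 2.43%, and AAGATGGC (YY1) in 4.35%, 1.08% and 2.92%. CACGTG, an E-box, was found in 10.2%, 4.66% and 7.75%. CCAAT (NF-Y) was equally frequent at 39.0%, 39.1% and 39.0%. The 2 remaining motifs were rarer in shared promoters, TGANTCA (AP-1) with 4.26%, 10.3% and 6.91%, and TATAAA on the sense strand 40 to 15 bases upstream with 0.861%, 4.38% and 2.41%. These are matches of letters and describe the windows, not binding. The windows also differed in median GC content, 60.3% at starts in a shared promoter and 48% at other starts. Motif shares were not adjusted for base composition.

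**Figure D1:**
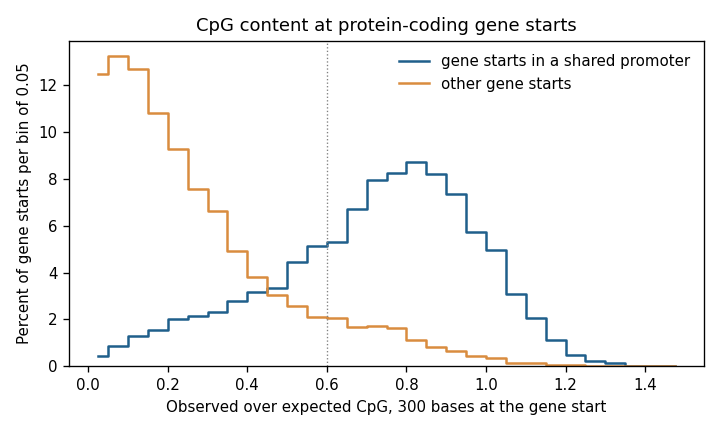
Distribution of the observed over expected CpG ratio (horizontal axis) in 300 bases at protein-coding gene starts, as the percent of starts in each bin of 0.05, for starts in a shared promoter and other starts. The dotted line marks 0.6, which 70.5% of the starts in a shared promoter and 10.9% of the others exceed.

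As regions, shared promoters were longer than shared distal regions, with a median of 1690 bp (418 to 23034 bp) against 943 bp. Their median GC content was 56.6% against 48.4%, and 61.2% against 1.87% had a CpG ratio above 0.6. The gene start itself lay inside 10459 (95.4%) of them. Most, 9631, served 1 gene start, 1278 served 2 and 54 served 3 or more. Starts on both strands lay in 1194 (10.9%), the arrangement of divergent gene pairs. In these, the median of the mean normalised count was 50.1 CPM (the count scaled to the library's TMM-adjusted total in common regions) over 1711 bp, against 36.8 CPM over 1686 bp in promoters with 1 start. The order held in each library per covered length, with medians of 27.5, 50.3, 28.5 and 36.5 CPM per kb against 21.5, 37.1, 20.4 and 27.2.

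Of the cut sites in common regions, shared promoters took 47.6% and 49.8% in cortex and 42.9% and 50.4% in hippocampus, while they made up 33.9% to 38.9% of the covered base pairs. The mean was 48.7% ± 1.61 (SD, n = 2) in cortex and 46.6% ± 5.28 in hippocampus. The difference of -2.07 percentage points was smaller than the spread between the hippocampus libraries (two-sided exact permutation test, p = 1, where 2 libraries against 2 cannot go below 0.33). Without hippocampus replicate 1 the difference was 1.66 points, so its sign rests on that library. The median nucleus had 47.4%, 49.7%, 43.2% and 50.2% of its common cut sites in shared promoters in the same order of libraries. Among nuclei leaning to the oligodendrocyte lineage this median was 61.8%, 49.4%, 52.1% and 61.3%, against 47.3%, 49.7%, 43.0% and 49.8% in the others, that is higher in 3 of 4 libraries. These nuclei were shallower in every library, with medians of 23126, 5623.5, 4129 and 9073 cut sites against 47920.5, 7560, 13359 and 15757. An effect of depth on this comparison was not tested. Without the oligodendrocyte-leaning nuclei the shares of all cut sites were 47.4%, 49.8%, 42.7% and 49.8%.

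Per covered length, shared promoters were more accessible than shared distal regions in every library. The median density was 22.1, 38.3, 21.1 and 28.2 CPM per kb in shared promoters and 11.8, 23.6, 14.1 and 14.8 CPM per kb in shared distal regions. The ratios were 1.87, 1.62, 1.50 and 1.90, a mean log2 ratio of 0.78, and the exact sign-flip permutation test over the 4 libraries gave the smallest p it allows, 0.12 (two-sided). Cortex replicate 2, with the shortest peaks, had the highest density in both sets, so densities are compared within a library.

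The share of nuclei in which a promoter was cut was compared after each nucleus had been thinned to 2000 cut sites in common regions, which left out 0, 242, 398 and 35 shallower nuclei of the 4 libraries. The median shared promoter was then cut in 7.22% and 6.20% of cortex nuclei and in 5.58% and 7.05% of hippocampus nuclei, against 2.00%, 1.60%, 1.95% and 1.65% for shared distal regions. Means were 6.71% ± 0.717 in cortex and 6.32% ± 1.04 in hippocampus (SD, n = 2), which differed by less than the spread between replicates (two-sided exact permutation test, p = 0.667). A thinned nucleus had a cut site in a median of 865, 796, 713 and 860 shared promoters. The unthinned medians were 49.2%, 12.9%, 13.6% and 22.1% of nuclei, in the order of the median cut sites per nucleus. Likewise 5285 promoters in cortex replicate 1 were cut in over 50% of unthinned nuclei, against 19 to 250 in the other libraries. A share over 20% after thinning was reached by 122 to 224 shared promoters and 19 to 28 shared distal regions in a library. Thinning equalises the cut sites per nucleus but may not remove every effect of depth. The ratio of observed to expected thinned share, given below, ranked the libraries as the median cut sites per nucleus did.

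**Figure D2:**
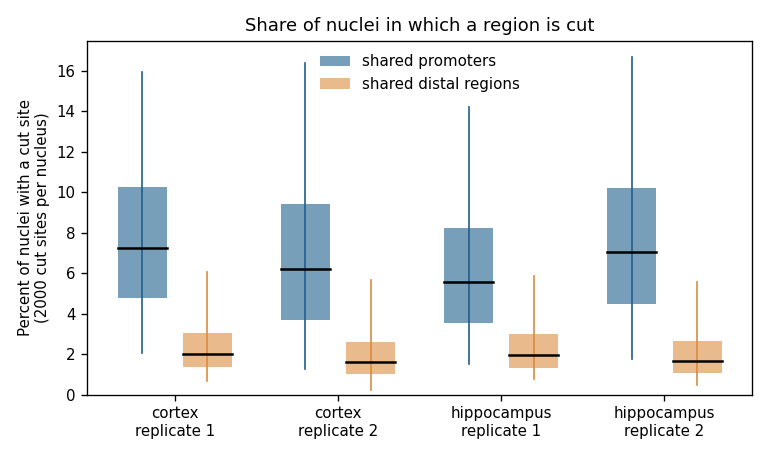
Percent of nuclei with at least 1 cut site in a region, each nucleus thinned to 2000 cut sites in common regions, for shared promoters and shared distal regions in each of the 4 libraries. Boxes span the quartiles, black lines are medians and thin lines run from the 5th to the 95th percentile, with promoter medians of 5.58% to 7.22% and distal medians of 1.60% to 2.00%.

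Levels spanned a wide range among the shared promoters, with a mean over libraries of 14.0 CPM at the 10th percentile and 78.5 CPM at the 90th, and long regions stood at the top. The highest mean was that of Kcnj9 (a GIRK potassium channel subunit), a merged region of 23034 bp with 323, 391, 255 and 312 CPM in cortex replicates 1 and 2 and hippocampus replicates 1 and 2. Srcin1 (an inhibitor of Src kinase) had, over 18313 bp, 271, 313, 256 and 317 CPM. Nacad had 194, 345, 236 and 251 CPM over 13756 bp. Per1, a core component of the circadian clock, had 225, 295, 226 and 225 CPM over 10048 bp. Per covered kb, Per1 had 24.4, 56.2, 27.3 and 38.6 CPM and Kcnj9 14.7, 26.7, 14.6 and 17.6 CPM, so the promoter of Per1 was denser in every library although its total was lower. Sfi1 (a centrosomal protein) had the next highest mean after Kcnj9, with 144, 643, 170 and 286 CPM, and cortex replicate 2 stood apart from the other libraries there. Sfi1 has near-identical copies in the mouse genome, so its count is uncertain.

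The 5 lowest means were those of Gm10722, Spaar, Gngt2, Pla2g3 and Ghrl, at 0.886 to 2.83 CPM over regions of 465 to 810 bp. Ghrl, which encodes the stomach hormone ghrelin, had 1.65, 1.40, 5.13 and 3.15 CPM and was cut in 0.430% to 0.888% of thinned nuclei. Gngt2, a G protein subunit of cone photoreceptors, had 3.56, 0, 3.56 and 3.70 CPM, where the 0 belonged to 1 bp of peak in cortex replicate 2.

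The rule of 1 bp admitted promoters that a library hardly covered. Fewer than 50 bp of peak were present for 3 and 67 shared promoters in the libraries of cortex and for 2 and 1 in those of hippocampus. In all, 11 shared promoters had a count of 0 in a library, 10 of them in cortex replicate 2. The largest replicate ratios came from these. Tpbg (a Wnt inhibitory glycoprotein) had 3204 counts over 3524 bp of peak in cortex replicate 1 and 0 over 2 bp in cortex replicate 2, at least 328-fold lower with the floor of 3 counts per library. Nacc2 had 2455 and 0 counts and Pycard (an inflammasome adaptor) 2282 and 0. Hippocampus, with 83 and 318 counts for Tpbg, 709 and 724 for Nacc2 and 1280 and 880 for Pycard, held both libraries within a far smaller ratio. The merged region also counted for 199 member gene starts although fewer than 4 libraries had a peak within 1 kb of the start itself. Of the gene starts outside the set, 859 had such a peak in 3 libraries, 452 in 2, 900 in 1 and 7404 in none, and 9 had one in all 4 libraries without a shared promoter.

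Stability between replicates was measured as the size of the log2 ratio of normalised counts. Over shared promoters its median was 0.28 for the cortex pair and 0.37 for the hippocampus pair. The 4 pairs from different tissues gave 0.27 (cortex replicate 1 with hippocampus replicate 1), 0.24 (cortex replicate 1 with hippocampus replicate 2), 0.34 (cortex replicate 2 with hippocampus replicate 1) and 0.16 (cortex replicate 2 with hippocampus replicate 2). Shared promoters of replicates were thus no closer than those of different tissues, and the smallest and the largest distance involved hippocampus replicate 2. In shared distal regions the hippocampus pair was the closest at 0.31, and the others lay between 0.38 and 0.49. In well-covered regions promoter medians were 0.17 (cortex pair), 0.19 (hippocampus pair) and 0.12 to 0.22 (different tissues), and distal medians 0.19, 0.30 and 0.26 to 0.29. Between the hippocampus libraries the promoter median thus exceeded the distal one over all regions and lay under it in well-covered ones. Over all regions 97.0% of promoters and 90.6% of distal regions were within 2-fold in this pair. With DESeq2 size factors the medians differed by -0.00433, so the order depended on the measure and on the size factors. Rank correlations across shared promoters (Spearman, 10963 regions that share the 2 libraries' depth and peak lengths, a description only) ran from 0.897 to 0.962 over the 6 pairs, and across distal regions from 0.658 to 0.847.

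**Figure D3:**
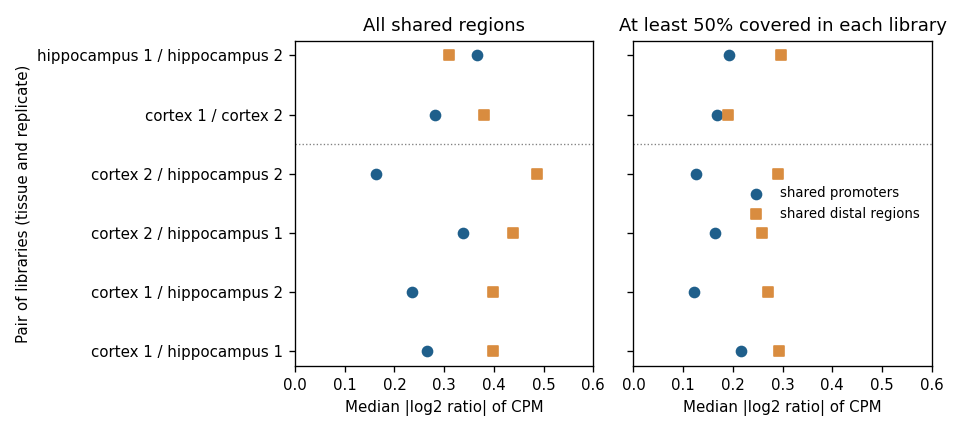
Median size of the log2 ratio of normalised counts (CPM) between each of the 6 pairs of libraries, for shared promoters (circles) and shared distal regions (squares), over all shared regions (left) and over well-covered ones (right). Pairs above the dotted line are replicates of a tissue, and their promoter medians of 0.28 and 0.37 (left) lie within or above the 0.16 to 0.34 of the pairs below it.

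Hippocampus replicate 1 was shifted at CpG-rich promoters. At the 6706 shared promoters with a CpG ratio above 0.6, its median log2 ratio to hippocampus replicate 2 was -0.43, against -0.21 at the 4257 others. Its ratio to both cortex libraries showed the same order, with cortex replicate 1 over it at 0.24 and 0.04 and cortex replicate 2 over it at 0.35 and 0.12. Between the cortex libraries the medians were -0.12 and -0.06. Hippocampus replicate 1 also had the lowest share of cut sites in promoters.

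The highest library exceeded the lowest by less than 2-fold in 9694 (88.4%) of the shared promoters and in 58.4% of distal regions, with median ratios of 1.44 and 1.80. Of the 1096 highest promoters of each library, 705 were shared by all 4, and of the 1096 lowest, 629. Among promoters above the median level, the smallest replicate ratios were found at 3 genes of synapses and signalling. Rab3c (a synaptic vesicle GTPase) had 49.3, 49.0, 53.9 and 55.0 CPM, Itpr1 (an endoplasmic reticulum calcium channel) 51.4, 52.6, 45.1 and 45.4 CPM, and Mapk8ip2 (a JNK scaffold) 47.1, 48.2, 48.1 and 47.2 CPM. All 3 were covered very unequally, Itpr1 over 2821 bp in cortex replicate 1 and 684 bp in cortex replicate 2, with nearly equal counts.

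The main comparison asked which shared promoters differ between cortex and hippocampus nuclei. No shared promoter passed an adjusted p of 0.05 in edgeR (0 of 10963, background 0% of 46698 regions). An unadjusted p under 0.05 was reached by 134 shared promoters (1.22%), where all common regions gave 8.14% and distal regions 10.6%. Of these promoters 74 were higher in hippocampus (0.675%, background 4.96%) and 60 higher in cortex (0.547%, background 3.19%). DESeq2 called 9 shared promoters (0.0821%, against 0.754% of all common regions), 7 higher in hippocampus (background 0.557%) and 2 higher in cortex (background 0.197%). Without cortex replicate 1 edgeR called 172 shared promoters (1.57%, background 6.84%), without cortex replicate 2 it called 41 (0.374%, background 1.83%), and without either hippocampus library 0 (background 0%). Such a fit leaves 1 library in a tissue, which is assumed to vary like the other tissue's libraries. Groups did not overlap in 1467 shared promoters (13.4%, against 36.9% of all common regions and 45% of distal regions). With all 4 libraries, each share above 0 was below its background. The number with an unadjusted p under 0.05 moved to 494 (4.51%, background 16.7%) without cortex replicate 1, 307 (2.8%, background 11.8%) without cortex replicate 2, 56 (0.511%, background 5.7%) without hippocampus replicate 1 and 324 (2.96%, background 4.82%) without hippocampus replicate 2. In the last of these, 281 promoters were higher in cortex (2.56%, background 1.76%), a share above the background. In regions with at least 50% covered, 120 of 6891 promoters (1.74%, against 9.43% of all and 14.2% of distal regions) had an unadjusted p under 0.05, 38 higher in hippocampus (background 4.35%) and 82 higher in cortex (background 5.07%). There edgeR called 0 (background 0%) and DESeq2 11 (0.16%, against 1.67%), 3 higher in hippocampus (background 0.855%) and 8 higher in cortex (background 0.819%). Leaving out a library there gave 1 edgeR call without cortex replicate 1 (background 0.0563%), 8 without cortex replicate 2 (background 0.655%), 5 without hippocampus replicate 1 (background 1.47%) and 14 without hippocampus replicate 2 (background 0.809%). The 120 with an unadjusted p under 0.05 became 56 (background 4.7%), 203 (background 8.3%), 77 (background 13.4%) and 704 (10.2%, background 14.9%) in the same order, and in the last 626 were higher in cortex (9.08%, background 6.57%), again above the background.

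Differences between tissues were small in size. The median size of the log2 difference was 0.12 in shared promoters and 0.35 in distal regions, and 127 promoters (1.16%) and 12.4% of distal regions were beyond 1. In well-covered regions the medians were 0.10 and 0.22, and 1 promoter and 166 distal regions were beyond 1. The 1 promoter, named after its value was seen, is described with Mettl11b below. In 4 bands of equal promoter number from 6.77 to 554 CPM in well-covered regions, an unadjusted p under 0.05 was reached by 3.54%, 1.68%, 1.22% and 0.522% of promoters and by 14.4%, 15.3%, 12.7% and 2.69% of distal regions. CpG-rich promoters reached it in 28 of 6706 (0.418%) and CpG-poor ones in 106 of 4257 (2.49%), where 8.14% of all common regions did. In all distal regions it was 6 of 630 (0.952%) and 3556 of 33048 (10.8%). In well-covered promoters it was 46 of 4786 (0.961%) and 74 of 2105 (3.52%). In well-covered distal regions it was 8 of 325 (2.46%) and 1664 of 11416 (14.6%), against 9.43% of all well-covered regions. CpG-rich and CpG-poor promoters had median difference sizes of 0.11 and 0.14. Their median replicate log2 ratios were 0.27 and 0.30 in size in cortex, and 0.43 and 0.26 in hippocampus. A p-value depends on both, so these shares do not measure the size of the difference alone.

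**Figure D4:**
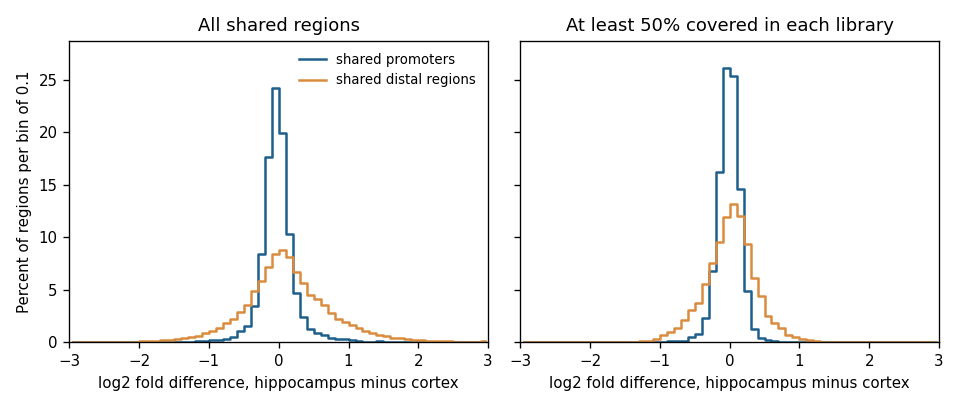
Distribution of the log2 difference of hippocampus minus cortex (edgeR) as the percent of regions in each bin of 0.1, for shared promoters and shared distal regions, over all shared regions (left) and over well-covered ones (right). Values beyond 3 in size are placed in the outermost bins. The median size was 0.12 in promoters and 0.35 in distal regions on the left, and 0.10 and 0.22 on the right.

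Covered length moved with these differences. Across shared promoters, the log2 difference rank-correlated with the log ratio of covered length between tissues at a Spearman rho of 0.649 (0.486 in well-covered ones), as did the replicate ratio in cortex (0.751) and in hippocampus (0.631). These values are descriptions across regions that share the 4 libraries. With the covered length as an offset the median difference of all common regions moved from 0.02 to -0.25, and changes under it are read relative to that shift.

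The 4 smallest p-values of promoters higher in hippocampus were at an adjusted p of 0.409 (edgeR). Pgf, a growth factor of placenta and vessels, had 9.92 and 14.7 CPM in cortex and 38.2 and 38.8 in hippocampus (chr12:85173901-85178229), and the groups did not overlap. Its log2 difference was 1.65 ± 0.28 (SE), with peaks over 1130 and 774 bp in cortex and 3809 and 3424 bp in hippocampus. With covered length as an offset the difference was -0.37, so the direction turned. Olfr285, an olfactory receptor gene, had 4.71 and 2.12 CPM in cortex and 24.9 and 19.1 in hippocampus, a log2 difference of 2.67 ± 0.45 over 543, 121, 867 and 689 bp. Its density was also higher in hippocampus, with 8.92 and 17.3 CPM per kb in cortex against 29.5 and 26.5. For 4933428G20Rik the values were 10.6, 6.84, 25.9 and 30.2 CPM, and the offset turned its difference of 1.68 ± 0.31 to -0.55. Skap2, an adaptor of Src family kinases, had 11.1 and 7.97 CPM in cortex and 25.03 and 27.1 in hippocampus (1.45 ± 0.28). DESeq2 called all 4, at adjusted p of 0.00131, 0.000985, 0.00710 and 0.0198.

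Of the promoters higher in cortex, Hr had the smallest p. Hr encodes a corepressor of nuclear receptors that is abundant in brain and skin. It had 61.5 and 64.6 CPM in cortex and 28.7 and 33.2 in hippocampus, where the 2 cortex libraries stood clear of the hippocampus libraries. The log2 difference was -1.03 ± 0.23 with an adjusted p of 0.416 (edgeR), and DESeq2 called it. At 2000 cut sites per nucleus the region was cut in 11.5% and 9.47% of cortex nuclei and in 4.71% and 5.75% of hippocampus nuclei. The exact 95% binomial intervals, which cover counting error only, ran from 8.58% to 12.9% over the cortex libraries and from 4.15% to 6.62% over the hippocampus libraries. Syt2, the calcium sensor of fast-spiking inhibitory terminals, had 32.9 and 26.7 CPM in cortex and 13.5 and 14.9 in hippocampus (-1.06 ± 0.25, adjusted p = 0.416 by edgeR), over 3324, 1036, 1474 and 963 bp of peak. Ankrd34c had 24.0, 16.0, 8.57 and 9.43 CPM (-1.16 ± 0.30). Mettl11b, an N-terminal methyltransferase, had 25.7, 34.6, 15.6 and 8.54 CPM (-1.32 ± 0.36).

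In the fit of well-covered regions, Hr again had the smallest p of the promoters higher in cortex, with a log2 difference of -0.99 ± 0.16 and an adjusted p of 0.0905 (edgeR). Mettl11b was the promoter with a difference beyond 1 there, at an adjusted p of 0.182. Cdh7, a cadherin, had 91.2 and 72.7 CPM of well-covered regions in cortex and 39.5 and 51.2 in hippocampus (-0.86 ± 0.19, adjusted p = 0.133). Hhatl had 50.2, 67.0, 27.6 and 33.5 CPM (-0.94 ± 0.22). In the other direction, Pipox had 32.8 and 33.4 CPM in cortex and 65.9 and 65.1 in hippocampus, a difference of 0.98 ± 0.19 (adjusted p = 0.102), and its replicates were nearly equal in each tissue. Ttll3, a tubulin glycylase, had 21.6, 20.2, 46.2 and 37.2 CPM (0.99 ± 0.23), and Smco3 had 20.4, 27.3, 53.6 and 37.6 CPM (0.94 ± 0.25). DESeq2 called all of these in well-covered regions.

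Genes that neuronal activity induces formed a list whose 12 genes all had a shared promoter, 13 regions in all. Their log2 differences ran from -0.78 to -0.04 with a median of -0.34, so all 13 were lower in hippocampus, where the median of all shared promoters was -0.04 and 58.1% of them were lower. Groups did not overlap in 6 of 13, all lower in hippocampus (5.67% of shared promoters and 15.4% of all common regions did so), and 1 had an unadjusted p under 0.05 (1.22% of shared promoters and 8.14% of all common regions did) and 0 passed the adjusted threshold. That 1, named after its value was seen, was Egr2, a zinc finger transcription factor, with 51.0 and 40.7 CPM in cortex and 23.0 and 30.4 in hippocampus (-0.78 ± 0.26, adjusted p = 0.512 by edgeR). Jun, the highest of the list, had 142, 180, 120 and 164 CPM, and Fosb, the lowest, had 24.9, 24.9, 19.4 and 28.3 CPM over 1 of its 2 regions, and in both the groups overlapped. Arc, a synaptic capsid-like protein, had 64.2 and 79.0 CPM in cortex and 50.1 and 59.0 in hippocampus (-0.39 ± 0.25). In well-covered regions 9 of 9 were lower in hippocampus (53.1% of promoters) with a median of -0.28, and 2 had an unadjusted p under 0.05 (1.74% of well-covered promoters and 9.43% of all well-covered regions did), Fos and Nr4a1. With the covered length as an offset the median was -0.28, close to the shift of -0.25 of all regions. With nuclei counted 12 of 13 were lower, with a median of -0.17. The list's summed level was 942, 1107, 711 and 932 CPM, so hippocampus replicate 2 lay just under cortex replicate 1 and hippocampus replicate 1 was the low library.

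Genes used by every cell nearly all had a shared promoter, with differences between tissues near 0. Members were found for 26 of 27 housekeeping genes, 30 of 31 proteasome genes, 12 of 12 subunits of RNA polymerase II, 74 of 79 ribosomal protein genes and 76 of 83 genes of the mitochondrial respiratory complexes. The median log2 differences of these lists were -0.04, -0.00, -0.05, -0.01 and 0.00, where that of all shared promoters was -0.04. An unadjusted p under 0.05 by edgeR was reached by 0 of their regions. It was reached by 1.22% of all shared promoters, 0.418% of CpG-rich ones and 8.14% of all common regions, so 0 is near the CpG-rich share. Median levels lay between 36.5 and 45.2 CPM, near the 38.3 CPM of all shared promoters. Their median CpG ratios were 0.642 to 0.748. Gapdh, a glycolytic enzyme, was the highest housekeeping promoter with 134, 168, 160 and 157 CPM. Eef1a1, a translation elongation factor, was the lowest with 11.3, 0.582, 9.21 and 12.6 CPM over 913, 70, 668 and 685 bp of peak. Polr2a, the largest subunit of RNA polymerase II, had 111, 142, 110 and 135 CPM, and Polr2k had 18.2, 15.1, 13.8 and 17.7. Psmb3, a proteasome subunit, had 66.5, 91.1, 80.7 and 90.7 CPM and Psmb7 23.1, 16.0, 16.4 and 21.5. Rps19 and Rps4x, the ribosomal extremes, had 82.7, 116, 97.7 and 110 CPM and 12.7, 16.2, 11.2 and 14.8 CPM. Psma1, whose sequence is shown above, had 41.5, 58.1, 44.7 and 50.4 CPM.

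Promoters of inhibitory neuron genes were long, with high totals. Of the 10 pan-GABA genes 9 had a shared promoter, with a median length of 6593 bp and a median level of 79.3 CPM, cut in a median of 12.7% of thinned nuclei. Gad2 had 89.8, 42.6, 82.1 and 94.1 CPM over 6593, 1184, 6348 and 5771 bp, so cortex replicate 2, with the shortest peaks, was the low library. Per covered kb Gad2 had 14.0, 35.5, 13.3 and 15.6 CPM, under the medians of all shared promoters (22.1, 38.3, 21.1 and 28.2) in every library. Slc32a1, the vesicular GABA transporter, had 141, 125, 143 and 172 CPM. The homeobox genes that direct inhibitory neuron development were at 143, 151, 156 and 175 CPM (Dlx1), 65.2, 64.3, 40.4 and 67.1 (Dlx2), 79.2, 68.3, 81.6 and 88.1 (Dlx5) and 141, 98.8, 146 and 127 (Dlx6). Abat, which breaks GABA down, had 48.1, 42.7, 46.0 and 56.3 CPM. Groups did not overlap in 4 of 9, all higher in hippocampus (background 7.71% of shared promoters and 21.4% of all common regions). An unadjusted p under 0.05 by edgeR was reached by 0 of 9 (1.22% of shared promoters and 8.14% of all common regions). The median log2 difference was 0.19. With the covered length as an offset it was -0.42, below the shift of -0.25 of all regions. All 9 were then lower in hippocampus, as were 94.2% of shared promoters. Only 1 of 9, Dlx1, was well covered. Gad1 was the gene without a member: no library had a peak within 1 kb of its annotated gene start, and a region with a peak of every library lay at another of its transcript starts.

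Genes of interneurons from the medial ganglionic eminence (MGE) had 10 of 12 members. Sst, the neuropeptide somatostatin, had 27.3 and 18.9 CPM in cortex and 14.9 and 9.43 in hippocampus, and was the 1 region of the list with an unadjusted p under 0.05 (-0.93 ± 0.34, adjusted p = 0.552 by edgeR), where 1.22% of shared promoters and 8.14% of all common regions had one. Its peaks covered 2983, 770, 1068 and 598 bp, and with covered length as an offset the difference was -0.18, smaller than the shift of -0.25 of all regions. Groups also did not overlap, lower in hippocampus, for Sox6 with 49.9, 37.8, 28.4 and 34.6 CPM, a transcription factor, and in all for 3 of 10 (5.67% of shared promoters and 15.4% of all common regions). Lhx6, the factor that specifies these cells, had 76.6, 37.7, 82.2 and 72.6 CPM, and Maf 92.1, 58.2, 61.8 and 84.4. Pvalb, a calcium buffer of fast-spiking cells, had 38.7, 14.1, 19.7 and 20.8 CPM, and the potassium channels of the same cells had 153, 82.1, 145 and 137 CPM (Kcnc1) and 52.6, 45.5, 45.5 and 46.9 CPM (Kcnc2). Satb1, a chromatin organiser, had 42.1, 10.9, 14.6 and 22.0 CPM and Npy, a neuropeptide, 30.3, 22.1, 20.7 and 24.3. In the other 7 the cortex and hippocampus ranges overlapped, and cortex replicate 1 was the highest library in 9 of 10. The median log2 difference was -0.30, and 1 of 10 was well covered.

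Genes of interneurons from the caudal ganglionic eminence (CGE) had 9 of 12 members, at lower levels, with a median of 16.0 CPM and 2.77% of thinned nuclei. Cnr1, the cannabinoid receptor, was the highest with 57.7, 53.5, 38.2 and 58.1 CPM. Reln, a secreted glycoprotein, had 41.2, 16.2, 24.2 and 39.0 CPM, and Adarb2, an RNA-editing family member, 27.7, 26.5, 32.1 and 31.4, the 1 region of 9 whose groups did not overlap (higher in hippocampus, as in 7.71% of shared promoters and 21.4% of all common regions). Prox1, a homeobox factor of these cells, had 25.3, 11.2, 16.9 and 26.4 CPM, Npas1 18.4, 10.8, 13.7 and 21.0, Cck 23.9, 7.77, 15.6 and 15.2, Calb2 11.1, 9.38, 5.68 and 10.5, and Htr3a 10.1, 10.3, 7.82 and 13.3. Sp8 had 7.07, 1.27, 0.138 and 3.23 CPM over 852, 108, 15 and 309 bp. None of the 9 had an unadjusted p under 0.05 by edgeR (1.22% of shared promoters and 8.14% of all common regions did). The median log2 difference was 0.05. The 3 genes without a member were Nr2f2, Vip and Lamp5, with a peak within 1 kb of the start in 0, 2 and 3 libraries, of which Nr2f2 and Lamp5 had a shared region at a transcript start.

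**Figure D5:**
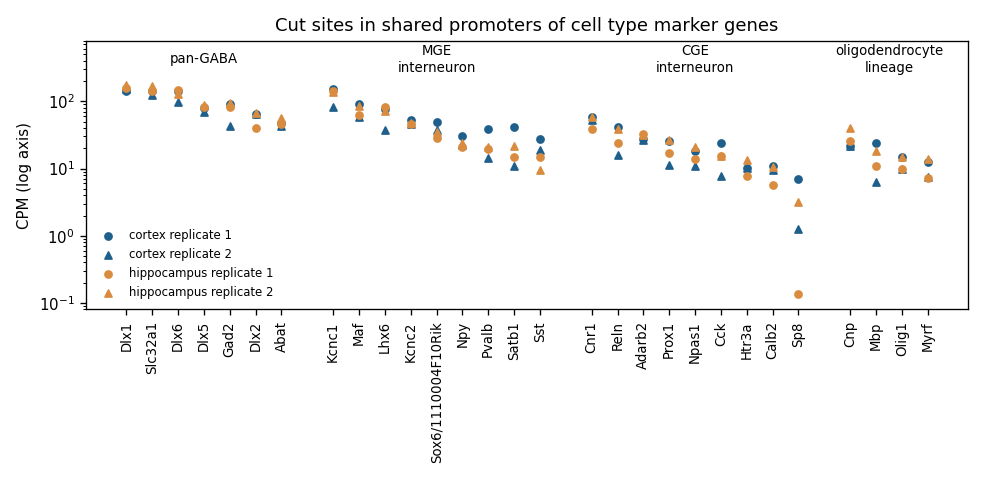
Normalised counts (CPM, log axis) of shared promoters named in the text from the pan-GABA, MGE interneuron, CGE interneuron and oligodendrocyte lineage lists, with a point for each of the 4 libraries. Genes are ordered by mean level within a list. Levels run from over 100 CPM for Dlx1 to 0.138 CPM for Sp8 in hippocampus replicate 1, and in most genes the symbols of both tissues interleave.

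Markers of other cell types were mostly outside the set. Shared promoters were found for 1 of 12 excitatory neuron genes (Camk2a), 4 of 14 oligodendrocyte lineage genes, 3 of 9 astrocyte genes, 0 of 9 microglial genes and 1 of 7 endothelial genes. Camk2a had 73.3, 71.9, 68.4 and 76.1 CPM over a CpG-poor region. Cnp, a myelin enzyme, had 21.5, 21.9, 26.0 and 40.6 CPM (log2 difference 0.62 ± 0.28, adjusted p = 0.676 by edgeR), Mbp, myelin basic protein, 24.2, 6.23, 10.8 and 18.1, Olig1 14.6, 9.86, 9.71 and 14.7 and Myrf 12.4, 7.49, 7.33 and 13.8. The 4 oligodendrocyte promoters summed to 72.7, 45.4, 53.9 and 87.3 CPM, with Mog and Sox10 outside the set. Of astrocyte genes, Sox9 had 62.8, 44.6, 39.5 and 47.0 CPM and Gfap 11.1, 13.3, 13.6 and 16.7, and Aqp4 was outside the set. Erg, an endothelial factor, had 8.78, 9.10, 5.15 and 6.64 CPM. Outside the cell type lists, shared promoters were found for 0 of 39 Hox genes and 2 of 1092 olfactory receptor genes. These were Olfr285 and Olfr1260, the latter with 9.34, 9.21, 10.9 and 10.9 CPM. Of liver and gut genes 3 of 12 had one, from Apoa1 with 41.9, 49.1, 36.3 and 45.0 CPM to Ttr with 5.36, 1.61, 8.84 and 5.47. The regions of Apoa1 and Ttr lay 848 and 709 bp from the gene start, and only 2 and 3 libraries had a peak within 1 kb of it. Of the Y-linked genes 3 of 4 were present in every library, from Eif2s3y with 13.6, 15.7, 11.1 and 16.6 CPM to Ddx3y with 10.9, 9.17, 7.03 and 10.2.

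Promoters open in a few nuclei were sought by setting the thinned share of nuclei against the share expected from the mean count if cut sites fell independently on nuclei. This ratio was available for 2126 shared promoters with an expected share of at least 10% in each library. Its median was 0.960, 0.836, 0.852 and 0.896, and its highest value over these promoters was 1.01, 0.884, 0.902 and 0.947. Cut sites need not fall independently, because both ends of a DNA fragment cut out by the transposase can lie in the same promoter. A ratio below 1 is therefore no sign by itself that a promoter was open in few nuclei. The size of this effect was not tested. The 8 lowest in the cortex libraries were Sfi1, Arc, Dusp26, Socs2, Ndufb7, Tmem167b, Tfcp2 and the region of Gamt and Dazap1. Sfi1 had 0.791, 0.805, 0.868 and 0.850, and Arc had 0.916, 0.799, 0.848 and 0.871. The order did not carry over between libraries, with Spearman values of 0.01 to 0.08 over the 6 pairs. Of the 100 lowest, 6 were common to the cortex libraries, 7 to the hippocampus libraries and 0 to all 4. The cell types of single nuclei were not assigned here.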

How the data were processed

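Nuclei were profiled with the 10x Genomics Chromium single-nucleus ATAC assay (4 libraries). Each deposited matrix held unnormalised counts of cut sites, by peak and nucleus barcode, in peaks that the authors called for that library alone. The submitters' processing notes name Cell Ranger ATAC 1.2.0 and GRCm38 (mm10). The deposited peak and barcode lists gave positions and names, and the motif matrices were not used here. 0 peaks lay past a chromosome's end.

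Peaks overlapping by 1 bp were merged, chromosome M left out, and cut sites summed over all deposited barcodes per library. Doublets were not removed (leaving out the deepest 5% of barcodes was an alternative). Tissues were compared over libraries with edgeR 4.0.16 (R 4.3.3, two-sided quasi-likelihood F test with robust dispersions, TMM factors, filterByExpr, Benjamini-Hochberg over all 46698 common regions), with a separate fit for the 19533 regions at least 50% covered. DESeq2 1.42.0 was an alternative. Common dispersions were 0.161 and 0.0294. In ratios of counts, counts under 3 were set to 3. Nuclei were thinned to 2000 cut sites without replacement. The edgeR steps were tested on simulated data. Other alternatives were other size factors, no filter, windows of 500 bp, transcript starts, covered length as an offset, nuclei counted, barcodes with at least 1000 cut sites, each library left out and a replicate block.

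Members and gene lists were chosen with earlier results of these data known. Regions were named by rule: the 5 highest and 5 lowest, the smallest p-values in each direction (4 in all regions, 3 in well-covered ones), the 3 most and 3 least stable, the marker lists, and the 8 lowest ratios of observed to expected share. Intervals are exact Clopper-Pearson intervals at 95% and cover counting error only. Sequences are RefSeq GRCm38.p6. Some genes and sequences that the naming rule covers are not reported here.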

Additional observations from a re-analysis of the deposited data

How the results depend on the processing

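edgeR called 0 shared promoters under other size factors, no filter, at least 50% covered regions, the covered-length offset, nuclei counted, the 1000 cut site minimum, without the deepest 5% of barcodes, without oligodendrocyte-leaning nuclei, with a 500 bp window and with transcript starts. DESeq2 called 9. Leaving out a library gave 0 to 172 calls, with 172 (167 higher in hippocampus) without cortex replicate 1, 41 (17 higher) without cortex replicate 2 and 0 without either hippocampus library. The remaining library of a tissue is then assumed to vary like the other tissue's libraries. Same-numbered libraries deviated weakly in opposite directions over shared promoters (correlation -0.194) but not over all common regions (-0.00465). Nothing in the labels pairs them. The replicate block gave 0 calls, also in well-covered regions. Crossed numbers gave 28 (0.255%, background 1.95%), a share below the background. In well-covered regions they gave 70, for which no background share is given. There, DESeq2 called 11 promoters, nuclei counted 11, and leaving out a library 1, 8, 5 and 14 (in the order cortex replicates 1 and 2, hippocampus replicates 1 and 2). The crossed block and the combinations with well-covered regions were chosen after seeing the data.

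Leaving out a library moved the tissue difference in the promoter share of cut sites from -5.80 to 1.66 percentage points, positive without hippocampus replicate 1 only. For the median share of nuclei it ran from -1.13 to 0.338 points, positive without hippocampus replicate 1 and, at 0.111, without cortex replicate 1. The excess of promoter over distal replicate spread in hippocampus (0.06, log2) reversed to -0.10 in well-covered regions and to -0.00433 with DESeq2 size factors. It kept its sign with counts per covered bp and with nuclei counted, and the cause was not tested. Of 280 values for 15 single promoters, 278 kept their sign. All but Arc and Sst were picked for the smallest p-values in these libraries, which each alternative reuses. The kept signs were thus largely fixed by that choice and say little about stability. The 2 reversals came with the covered-length offset, Pgf at -0.37 and 4933428G20Rik at -0.55. Against the shift of -0.25 under that offset, Arc (-0.03) and Sst (-0.18), which kept their sign, also turned. The excess of promoter over distal density kept its sign in each alternative run. Depth limits single promoters, of which 245 had under 100 counts in some library.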
